A study of Glycine max with 4 samples.

Results

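Glyma.14G165000 and Glyma.13G084000, both described as nitrate reductase 1, and Glyma.02G132100, described as nitrite reductase 1, were followed in soybean leaves. They are 3 of the 39505 loci in the deposited table, and 3 of the 6 loci in it that are described as nitrate or nitrite reductase. They were picked by name with their difference between the groups already known. Their values between groups are therefore given as a description with no test, and tests are given only for other loci of the pathway.

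Leaf transcripts were measured by RNA-seq in 4 libraries of Glycine max cv. Williams 82. All seedlings grew in hydroponics with nitrate (Ca(NO3)2 and KNO3) as the nitrogen source, and were moved at day 18 into fresh solution. Pi-deprived leaves (PDL-1 and PDL-2) came from plants kept for 24 h at 0 µM KH2PO4, and Pi-sufficient leaves (PSL-1 and PSL-2) from plants kept for 24 h at 500 µM KH2PO4. K2SO4 stood in for KH2PO4 in the deprived solution, so the 2 groups differed in sulfate as well as in Pi. The tissue was the first trifoliate leaf, each library was a biological replicate pooled from 3 plants, and the time of day at sampling is not given in the sources used here. Values are FPKM, fragment numbers scaled to transcript length and to the mapped depth of the library, so levels of genes of different length can be set side by side. With n = 2 in each group, an exact two-sided permutation test on 1 gene cannot go below p = 0.333.

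Nitrate reductase is a cytosolic enzyme that carries molybdenum cofactor, heme and FAD, and reduces nitrate to nitrite with NADH or NADPH. Nitrite is toxic and passes into the plastid, where nitrite reductase, an enzyme with siroheme and an iron-sulfur cluster, uses electrons of ferredoxin to make ammonium. Glutamine synthetase and glutamate synthase then bind the ammonium into amino acids. In leaves of many plants the transcripts of both reductases are raised by nitrate and light and follow the circadian clock, and nitrate reductase protein is held inactive by 14-3-3 proteins once it is phosphorylated.

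Glyma.14G165000 lies on chromosome 14 at 40731932 to 40737099 (Gmax2.0) and was the least abundant of the 3 genes. Its FPKM was 14.1 in PDL-1 and 19.6 in PDL-2, against 4.47 in PSL-1 and 2.18 in PSL-2. Both deprived libraries stood above both sufficient ones, with group means of 16.9 ± 3.88 and 3.33 ± 1.62 (SD, n = 2), a 5.07-fold ratio. On the log2(FPKM + 0.1) scale the difference was 2.37. Its replicates were also the farthest apart of the 3 genes, since PSL-1 exceeded PSL-2 by 1.002 on that scale. The smallest difference between any deprived and any sufficient library was 1.64 and the largest 3.11. In the ranking of all loci tested it stood at percentiles 42.5 and 27.8 in PSL-1 and PSL-2 and at 69.5 and 76.2 in PDL-1 and PDL-2. These are whole leaves, in which more RNA per cell and more cells of a type that holds the transcript cannot be told apart.

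Glyma.13G084000, on chromosome 13 at 19465412 to 19471665, is the more abundant nitrate reductase gene of the pair. Its FPKM was 671 in PDL-1 and 685 in PDL-2, against 339 in PSL-1 and 348 in PSL-2. Its groups did not overlap, and replicates within a group differed by no more than 0.04 on the log2 scale. The group means were 678 ± 10.1 and 344 ± 6.74 (SD, n = 2), a 1.97-fold ratio and a log2 difference of 0.98, with single libraries of the 2 groups 0.94 to 1.02 apart. It was already near the top of the leaf transcriptome under sufficient Pi, at percentiles 98.6 and 98.4, and stood at 99.03 and 99.07 under deprivation.

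Glyma.02G132100, the nitrite reductase gene, lies on chromosome 2 at 13635784 to 13639388. Its FPKM was 199 in PDL-1 and 214 in PDL-2, against 109 and 102 in the PSL libraries. The groups again did not overlap, at means of 207 ± 10.2 and 105 ± 4.92 (SD, n = 2). The ratio of the means was 1.96 and the log2 difference 0.97, close to those of Glyma.13G084000. Libraries of the 2 groups were 0.87 to 1.07 apart on the log2 scale, and replicates of Glyma.02G132100 no more than 0.10.

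The study counted a locus as responsive where its log2 fold change was 1 or more in either direction with a p of at most 0.05. Among the 32686 loci tested here, 373 (1.14%) passed this rule as higher in PDL and 290 (0.887%) as lower. Of the 3 genes, 1 had a log2 difference above 1 (Glyma.14G165000), and Glyma.13G084000 and Glyma.02G132100 lay just under it. All 3 had both PDL libraries above both PSL libraries, which held for 20.2% of the loci tested. Nothing is read from these counts, since the genes were picked on this contrast. For scale, of the 1881 loci averaging 100 FPKM or more, 44 (2.34%) had a difference at least as high as that of Glyma.13G084000 and 45 (2.39%) at least as high as that of Glyma.02G132100. Of the 28208 loci with a mean of at least 1, 346 (1.23%) reached that of Glyma.14G165000. Each of these shares counts the gene itself, and nothing is read from them either. ACTIN11 (Glyma.18G290800), the reference gene of the study's qRT-PCR, had 88.1 and 106 FPKM in PDL-1 and PDL-2, against 104 and 92.3 in PSL-1 and PSL-2, a log2 difference of −0.02.

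**Figure D1:**
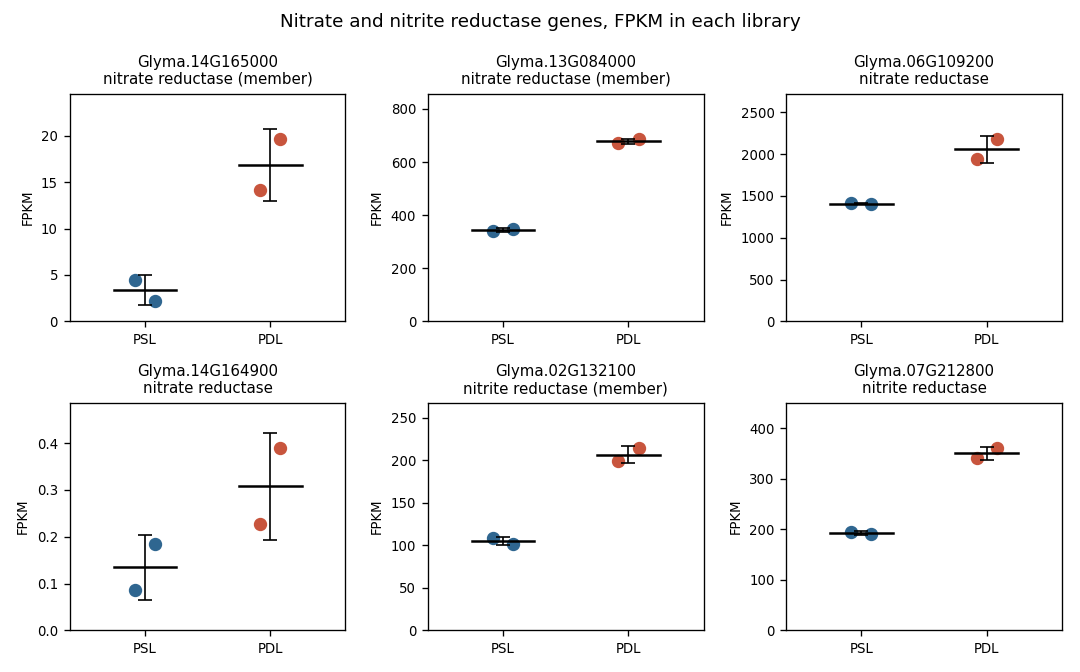
FPKM of the 6 nitrate and nitrite reductase loci in each library, 1 panel per locus with its own linear axis from 0, where (member) marks the 3 genes described first. Points are libraries, replicate 1 left and 2 right, horizontal bars are group means and whiskers 1 SD (n = 2); in every panel both PDL points lie above both PSL points, and the highest locus, Glyma.06G109200, reaches 2175 FPKM while Glyma.14G164900 stays at 0.389 or less.

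The other 3 loci of these families are those left after the 3 genes were picked with their difference known. Their values are therefore not free of that choice. The main nitrate reductase gene of the leaf was Glyma.06G109200, on chromosome 6 at 8794672 to 8799190, with 1947 and 2175 FPKM in the PDL libraries and 1411 and 1400 in the PSL libraries. Its groups did not overlap, and the ratio of the means, 2061 ± 162 to 1405 ± 7.79 (SD, n = 2), was 1.47. The log2 difference of 0.55 (SE 0.13) lay under the fold threshold, with a limma p of 0.0113 and an adjusted p of 0.499. Under quantile normalization it was 0.33 (limma p 0.0803), and with a replicate block the limma p was 0.0631. The other nitrite reductase gene, Glyma.07G212800, on chromosome 7 at 38482519 to 38486122, had 342 and 360 FPKM under deprivation, beside 195 and 190.2 under sufficiency. Its log2 difference was 0.86 (SE 0.10), a 1.82-fold ratio, with a limma p of 0.000759 and an adjusted p of 0.334, so that it too did not reach the fold threshold. An unadjusted p of at most 0.05 was found for 8.93% of all loci tested, and with higher values in PDL for 4.64%.

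Glyma.14G164900 lies 4.70 kb from Glyma.14G165000, at 40721308 to 40727235 on chromosome 14, and carries the same description. It was hardly expressed, at 0.227 and 0.389 FPKM in the deprived libraries and 0.0860 and 0.184 in the sufficient ones. Its mean fell under the 0.3 FPKM needed for testing, and the number of reads behind such low values is not known. Across the 6 loci the order of levels was the same in all 4 libraries, from Glyma.06G109200 through Glyma.13G084000, Glyma.07G212800, Glyma.02G132100 and Glyma.14G165000 down to Glyma.14G164900. Within a group no neighbours in this order overlapped. Between groups some did: Glyma.07G212800 under deprivation (342 and 360 FPKM) overlapped Glyma.13G084000 under sufficiency (339 and 348), and Glyma.02G132100 under deprivation stood just above Glyma.07G212800 under sufficiency. TopHat was allowed to place a read at several sites, so reads of near-identical stretches of these paralogs may have been shared between them, and the split within a family is less certain than its sum.

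Summed over its 4 loci, nitrate reductase reached 2632 and 2880 FPKM in PDL against 1754 and 1751 in PSL, a ratio of group means of 1.57. Most of it came from Glyma.06G109200, which made up 80.4% and 80.0% of the sum in PSL-1 and PSL-2 and 74.0% and 75.5% in PDL-1 and PDL-2. The share of Glyma.13G084000 was 19.3% and 19.9% in PSL and 25.5% and 23.8% in PDL. Glyma.14G165000 had the highest fold ratio but contributed only 0.255% and 0.125% of the sum in PSL and 0.536% and 0.681% in PDL. The gap between the groups in summed nitrate reductase FPKM thus lay almost wholly in the 2 abundant genes.

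The nitrite reductase loci together gave 541 and 574 FPKM in PDL-1 and PDL-2, against 304 and 292 in PSL-1 and PSL-2, a ratio of 1.87. Glyma.02G132100 held 36.9% and 37.3% of this sum in PDL and 35.8% and 34.9% in PSL, so its share moved little. The summed nitrate reductase FPKM was 5.78 and 5.99 times that of nitrite reductase in PSL and 4.87 and 5.02 times in PDL, without overlap. By contrast, Glyma.13G084000 stood to Glyma.02G132100 as 3.12 and 3.42 to 1 in PSL and as 3.36 and 3.20 to 1 in PDL, with the ranges overlapping. The FPKM pooled per group in the table is not the mean of its libraries. For Glyma.13G084000 the pooled values, 621 in PDL and 314 in PSL, lie below both libraries of each group, and for Glyma.02G132100, at 224 and 112, above both. Glyma.06G109200, pooled at 1757 in PDL and 1207 in PSL, also lies below both libraries. Glyma.07G212800, pooled at 389 and 210, lies above both. The ratio of nitrate to nitrite reductase, for single genes and for the sums, thus depends on which values are used. The ratio of Glyma.13G084000 to Glyma.14G165000 in single libraries was 75.8 in PSL-1, 159.7 in PSL-2, 47.5 in PDL-1 and 34.9 in PDL-2.

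**Figure D2:**
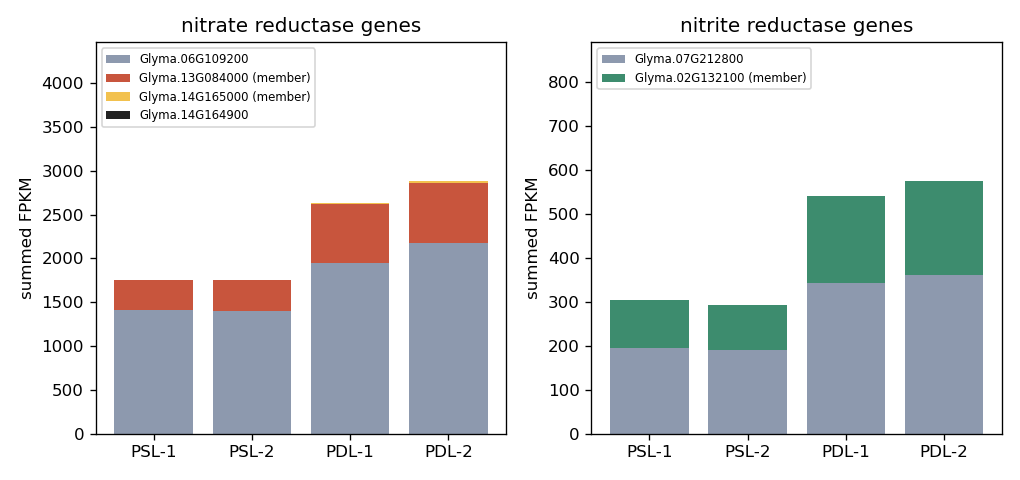
Summed FPKM of the 4 nitrate reductase loci (left) and of the 2 nitrite reductase loci (right) in each of the 4 libraries, stacked by locus from 0, with separate axes. The nitrate reductase stack grows from 1754 and 1751 in PSL to 2632 and 2880 in PDL, mostly Glyma.06G109200 and Glyma.13G084000, while Glyma.14G165000 is a line at the top and Glyma.14G164900 is too small to see.

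On the chromosome, the tested loci next to the 3 genes lay nearer to 0 than the genes themselves. Nothing is read from this, since the genes were picked with their difference known. Among neighbours with a mean under 0.3 FPKM, Glyma.13G083900 was at 1.04 and Glyma.13G083600 at −1.59. Of the 5 loci on each side of Glyma.14G165000, 7 could be tested and 0 were called at the study's thresholds, with log2 differences between −0.07 and 0.24. Around Glyma.13G084000, 8 could be tested and 0 were called (−0.39 to 0.36), and around Glyma.02G132100 6 could be tested and 0 were called (−0.59 to 0.18). Over all loci 2.03% were called in either direction. An unadjusted limma p of at most 0.05 was found for 0 of these tested neighbours, beside 8.93% of all loci. The surroundings of Glyma.14G165000 and Glyma.13G084000 resembled each other. Both held, in the same order, loci described as oxysterol binding protein-related protein 1C, phosphatidylinositol-4-phosphate 5-kinase 1 and MAPK/ERK kinase kinase 1, the first 2 on one side of the gene and the last on the other. These 3 shared descriptions lay around a gene at 2.18 to 19.6 FPKM on chromosome 14 and one at 339 to 685 on chromosome 13.

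**Figure D3:**
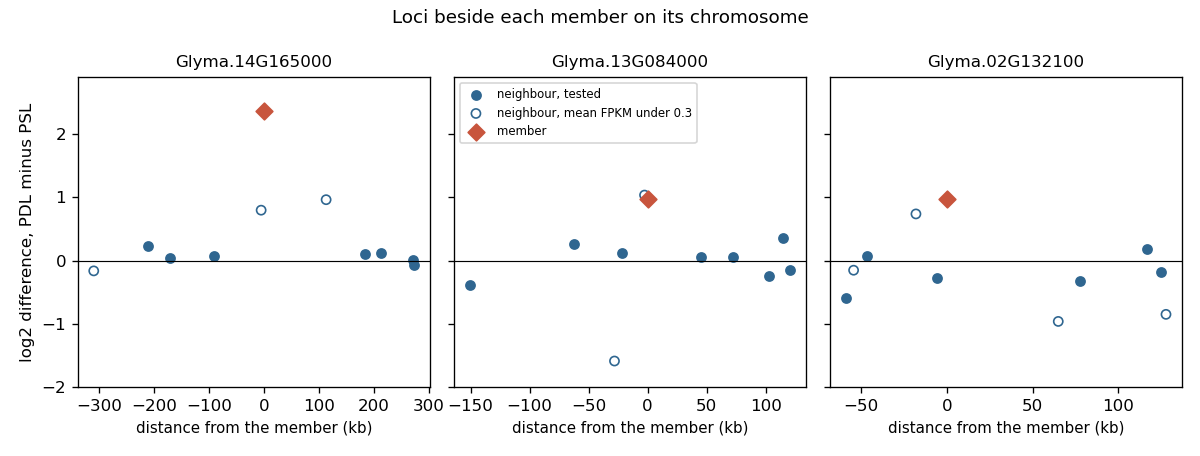
Log2 difference, PDL minus PSL on the log2(FPKM + 0.1) scale, of the 5 loci on each side of each gene against their distance from it in kb. Filled circles are tested neighbours, open circles neighbours with a mean under 0.3 FPKM and diamonds the gene itself; tested neighbours stay between −0.59 and 0.36, below the diamonds at 2.37, 0.98 and 0.97.

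The profile over the 4 libraries, as log2(FPKM + 0.1) centred on its mean, was compared with those of 22938 described single-gene loci of at least 1 FPKM. Glyma.13G084000 and Glyma.02G132100 were close to each other, at a Euclidean distance of 0.108. The locus nearest to Glyma.02G132100 was Glyma.02G096800, described as glucose-6-phosphate dehydrogenase 2, an enzyme of the oxidative pentose phosphate pathway that makes NADPH, at a distance of 0.0153. Its FPKM was 36.8 and 39.0 under deprivation, beside 20.1 and 18.8 under sufficiency. Next came Glyma.07G018000, a delta tonoplast integral protein or vacuolar aquaporin (0.0743), and Glyma.04G019500, SKU5 similar 5 (0.0947). Glyma.13G084000 itself ranked 5 and the second nitrite reductase gene, Glyma.07G212800, ranked 6.

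Nearest to Glyma.13G084000 were Glyma.15G106700, an HSP20-like chaperone (0.0503), Glyma.07G018000 (0.0790) and Glyma.13G362300, nucleotide transporter 1 (0.0951). Glyma.15G106700 had 36.6 and 38.0 FPKM in the deprived libraries and 19.1 and 19.9 in the sufficient ones, which is the same shape at a far lower level. Glyma.14G165000, with a larger difference in the same direction, lay 1.61 from Glyma.13G084000 and 1.56 from Glyma.02G132100, which ranked 268 and 229 of the loci compared. Its nearest loci were Glyma.09G221500, a SAUR-like auxin-responsive gene (0.357), Glyma.10G247200, of unknown function with a DUF1677 domain (0.549), and Glyma.06G185300, a gibberellin-regulated family gene (0.577). Glyma.09G221500 had 16.2 and 26.1 FPKM in PDL-1 and PDL-2, against 7.31 and 2.88 in PSL-1 and PSL-2, with PSL-1 above PSL-2 as in Glyma.14G165000. The likeness rests on 4 points that share 2 groups, so any gene that follows the groups with little spread comes close.

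The rest of the nitrate pathway was then examined through 11 overlapping lists, made from gene descriptions, the KEGG nitrogen metabolism pathway and the GO term for nitrate assimilation. Leaving out the 3 genes, the lists held 210 loci, of which 176 were tested. At the study's thresholds 0 were called higher and 2 lower, and no locus of the union had a limma adjusted p under 0.05, against 19 of all 32686 loci (0.0581%). Their median log2 difference was 0.07, beside −0.01 over all loci tested. Both PDL libraries lay above both PSL libraries in 63 of the 176 (35.8%, beside 20.2% of all loci) and below them in 42, beside 21.1%. At an unadjusted p of at most 0.05 and any fold, 18 (10.2%) were higher and 9 (5.11%) lower, beside 4.64% and 4.29% of all loci.

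**Figure D4:**
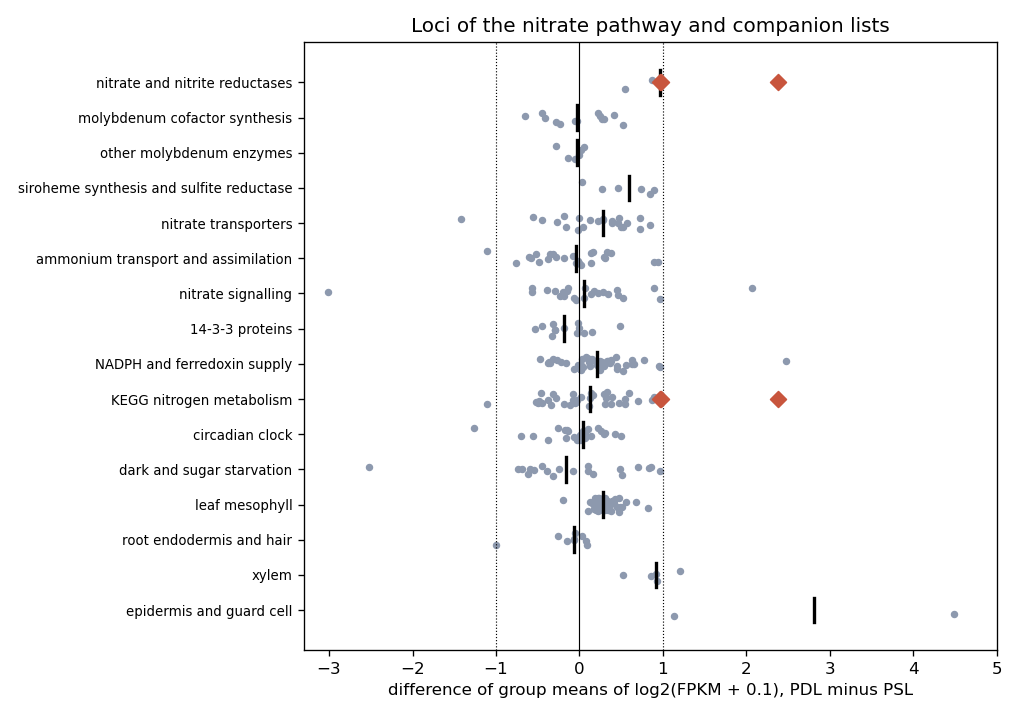
Log2 difference, PDL minus PSL on the log2(FPKM + 0.1) scale, of the tested loci of each list, 1 point per locus, with the list median as a vertical bar. Diamonds are the 3 genes described, which enter the medians drawn for the nitrate and nitrite reductase list and the KEGG list (the GO list is not drawn), and dotted lines mark the fold threshold at −1 and 1; the medians of the other pathway lists drawn lie between −0.18, for 14-3-3 proteins, and 0.60, for siroheme synthesis and sulfite reductase.

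The cofactors of both enzymes were read from their own lists. Of the 13 tested loci for molybdenum cofactor synthesis 0 were called. An unadjusted p of at most 0.05 was found for 1, which was lower (7.69%, beside 4.29% of all loci). The median of the 13 was −0.03, and 6 were above 0. The most abundant were Glyma.09G050100, a molybdenum cofactor sulfurase, with 51.6 and 38.7 FPKM in the PDL libraries and 30.9 and 47.3 in the PSL libraries, and Glyma.09G049900, at a log2 difference of −0.06. Molybdenum cofactor sulfurase serves aldehyde oxidase and xanthine dehydrogenase rather than nitrate reductase. These other molybdenum enzymes, with sulfite oxidase, had a median of −0.03 over 6 tested loci, with 0 called and 0 at an unadjusted p of at most 0.05. The most abundant of them were Glyma.19G071800, sulfite oxidase, and Glyma.02G272400, aldehyde oxidase 2, at 0.01 and 0.06.

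Siroheme is the cofactor shared by nitrite and sulfite reductase. All 6 tested loci of siroheme synthesis and sulfite reductase were above 0, with a median of 0.60. In 5 of them both PDL libraries exceeded both PSL libraries (20.2% over all loci), 3 were higher at an unadjusted p of at most 0.05 (4.64% over all loci), and 0 were called. Glyma.08G150800, urophorphyrin methylase 1, which catalyses the first step towards siroheme, had 186 and 165 FPKM under deprivation, beside 85.5 and 111 under sufficiency. Its log2 difference was 0.85 (SE 0.17), with a limma adjusted p of 0.471. Its paralog Glyma.15G270200 had 4.48 and 5.01 FPKM in the deprived libraries and 2.85 and 2.76 in the sufficient ones, a difference of 0.74. The sulfite reductase genes Glyma.11G093200 and Glyma.12G019400, whose enzyme makes sulfide for cysteine, were at 0.27 and 0.46. Sulfate supply also differed between the solutions, and it cannot be told apart from Pi for these or any other loci, the 3 reductase genes included.

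Electron supply was read from 48 tested loci for NADPH and ferredoxin, which had a median of 0.21, with 38 above 0 and 0 called. Their differences ran from −0.47 to 2.48, and the locus at 2.48 passed the fold threshold but not that on p. At an unadjusted p of at most 0.05, 7 (14.6%, beside 4.64% of all loci) were higher and 1 (2.08%, beside 4.29%) lower. Besides Glyma.02G096800, whose log2 difference was 0.96, its paralog Glyma.18G284600 had 35.1 and 33.5 FPKM in PDL-1 and PDL-2, against 18.4 and 17.0 in PSL-1 and PSL-2, a difference of 0.95. Both lay just under the fold threshold. Their likeness to Glyma.13G084000 and Glyma.02G132100 follows from how they were chosen. Glyma.02G096800 was named for its near profile, and Glyma.18G284600 was added after its values were seen. The most abundant loci of the list, the ferredoxins Glyma.08G126800 and Glyma.05G168400, were at 0.08 and 0.27. Glyma.08G126800 had 2334 and 2899 FPKM under deprivation, beside 2385 and 2536 under sufficiency, so its groups overlapped.

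Of 23 tested nitrate transporters, 1 was called lower (0.887% over all loci) and 0 higher. Glyma.18G127200, nitrate transporter 1.7, which in Arabidopsis loads nitrate into the phloem of older leaves, had 1.05 and 0.981 FPKM in the deprived libraries and 2.52 and 3.28 in the sufficient ones. It fell by 1.42 on the log2 scale (SE 0.25), with a limma p of 0.00378 and an adjusted p of 0.470, and with a pseudocount of 1 its difference of −0.95 no longer met the fold threshold. The median of the transporters was 0.28, and the groups did not overlap in 8 higher and 2 lower loci, beside 20.2% and 21.1% of all loci. The most abundant were Glyma.11G031500, nitrate transporter 1.1, with 79.9 and 86.4 FPKM in the PDL libraries and 66.4 and 70.2 in the PSL libraries, and Glyma.05G029900, nitrate transporter 1:2, at a log2 difference of 0.05.

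Downstream of nitrite reductase, 0 of 25 tested loci for ammonium transport and assimilation were called. By unadjusted p (at most 0.05), 2 (8%, beside 4.64% of all loci) were higher and 1 (4%, beside 4.29%) lower. The 25 loci had a median of −0.04, with differences from −1.11 to 0.94. The most abundant were the glutamine synthetase 2 genes, of which Glyma.13G210800 had 1142 and 1142 FPKM in PDL-1 and PDL-2, against 882 and 988 in PSL-1 and PSL-2. Its log2 difference was 0.29, and that of Glyma.15G102000 was 0.34. The NADH-dependent glutamate synthase gene Glyma.06G127400 had 42.4 and 35.2 FPKM under deprivation, beside 19.4 and 20.9 under sufficiency, a difference of 0.94. Its paralog Glyma.04G236900 was at 0.31, and at 0.068 without PSL-2 and 0.55 without PSL-1. Over the KEGG nitrogen metabolism pathway without the 3 genes, 0 of 36 tested loci were called, with a median of 0.07. In this pathway 5 (13.9%, beside 4.64% of all loci) were higher by unadjusted p (at most 0.05) and 1 (2.78%, beside 4.29%) lower. Its most abundant loci, the carbonic anhydrase 1 genes Glyma.19G007700 and Glyma.05G007100, were at 0.60 and 0.39, with limma adjusted p of 0.524 and 0.605. Over the GO nitrate assimilation list without the 3 genes, 3 loci were tested and 0 called, and the 1 with an unadjusted p of at most 0.05 was Glyma.06G109200.

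Among 25 tested loci of nitrate signalling 1 was called lower (0.887% over all loci) and 0 higher. Their differences ran from −3.02 to 2.07, and the locus at 2.07 passed the fold threshold but not that on p. Glyma.15G197300, CBL-interacting protein kinase 23, which in Arabidopsis phosphorylates a nitrate transporter, was listed at 0 in both PDL libraries and at 0.756 and 0.666 FPKM in PSL. It fell with a limma p of 0.0241 and an adjusted p of 0.527, at a level just over the filter, and with a pseudocount of 1 its difference no longer met the fold threshold. The most abundant locus of the list merges Glyma.05G043800,Glyma.05G043900 and is described as BTB and TAZ domain protein 2, a nitrate-induced protein in Arabidopsis. It had 3224 and 4190 FPKM in the deprived libraries and 2112 and 1852 in the sufficient ones, a log2 difference of 0.89 (SE 0.19, limma adjusted p 0.479). The LOB domain protein genes Glyma.11G049300 and Glyma.01G192600, relatives of repressors of nitrate-responsive genes in Arabidopsis, were at 0.52 and 0.47. Glyma.11G049300 had 185 and 175 FPKM in PDL-1 and PDL-2, against 138 and 114 in PSL-1 and PSL-2.

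The 13 tested 14-3-3 protein genes had a median of −0.18, and 0 were called. Lower at an unadjusted p of at most 0.05 were 2 (15.4%, beside 4.29% of all loci). Both PDL libraries lay below both PSL libraries in 7 of the 13 (21.1% over all loci) and above in 1 (20.2% over all loci). The most abundant, Glyma.14G176900 and Glyma.02G208700, showed differences of −0.00 and −0.01. Glyma.14G176900 had 750 and 734 FPKM under deprivation, beside 726 and 761 under sufficiency.

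Markers of leaf cells were read beside these results. The 74 tested loci for light harvesting, photosystems and the Rubisco small subunit marked the tissue as green leaf, and 73 of them were above 0, with a median of 0.28. In 69 (93.2%, beside 20.2% of all loci) both PDL libraries exceeded both PSL libraries, 9 (12.2%, beside 4.64%) were higher at an unadjusted p of at most 0.05, and 0 were called. Summed FPKM of this list was 234570 and 234695 in the deprived libraries and 183236 and 201573 in the sufficient ones. Per 1000 FPKM of this list, Glyma.13G084000 had 2.86 and 2.92 in PDL-1 and PDL-2, against 1.85 and 1.73 in PSL-1 and PSL-2. The same measure was 0.850 and 0.911 against 0.594 and 0.505 for Glyma.02G132100, and 0.0602 and 0.0835 against 0.0244 and 0.0108 for Glyma.14G165000. Set against this list, the ratios of the group means were 1.615, 1.602 and 4.08, beside 1.97, 1.96 and 5.07 for FPKM alone.

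Lists named for other cell types gave smaller sums. The tested loci of the xylem list were paralogs described as xylem cysteine peptidase 2, side by side on chromosomes 4 and 6, and a xylem serine peptidase, Glyma.09G266000. They are therefore not independent markers, and the paralogs may share reads. Of these 5 tested loci 1 was called higher (1.14% over all loci), and the median was 0.91. Both PDL libraries exceeded both PSL libraries in 4 of the 5 (20.2% over all loci). An unadjusted p of at most 0.05 with higher values in PDL was found for 3 (4.64% over all loci). The xylem sum ranged from 19.3 to 26.3 FPKM in PDL and from 10.3 to 13.9 in PSL. The epidermis and guard cell list matched only 2 loci, both described as stomagen, a peptide that in Arabidopsis comes from mesophyll and promotes stomata. Both were called higher (1.14% over all loci), with sums of 9.55 and 12.995 FPKM in the PDL libraries and 4.41 and 3.59 in the PSL libraries. Of 9 tested root endodermis and root hair loci, 1 was called lower (0.887% over all loci) and the median was −0.06. The nodule list matched 0 loci. The part of these cell types in the differences of the reductase genes was not tested.

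Lists named for the clock and for dark and sugar starvation were also followed. The clock list held loci described as ELF4-like, pseudo-response regulator, gigantea or CCT motif-containing response regulator. It also took in loci described as relative of early flowering 6, so it was not made of clock genes alone. Of its 28 tested loci, 1 was called lower (0.887% over all loci) and 0 higher. Glyma.14G193700, ELF4-like 1, an evening gene of the clock in Arabidopsis, had 4.51 and 5.38 FPKM under deprivation, beside 12.3 and 11.6 under sufficiency. It fell by 1.26 on the log2 scale (SE 0.15, limma p 0.000831, adjusted p 0.347), while the median of the list was 0.04. The list named for dark and sugar starvation held mostly loci described as senescence-associated genes, and otherwise loci described as glutamine-dependent asparagine synthase. Its values are thus mainly those of genes named for senescence. Of its 20 tested loci 0 were called, with a median of −0.16 and differences from −2.52 to 0.97. By unadjusted p (at most 0.05), 4 (20%, beside 4.64% of all loci) were higher and 5 (25%, beside 4.29%) lower. Asparagine synthetase Glyma.11G171400, which makes asparagine, a transport and storage form of nitrogen, had 663 and 766 FPKM in the deprived libraries and 419 and 318 in the sufficient ones, a difference of 0.97. The other 4 loci of this description ranged from −0.45 (Glyma.18G061100) to 0.86 (Glyma.02G228100), with the most abundant, Glyma.14G195000, at 0.49. Whether a shift in clock or sugar state had a part in the reductase levels was not tested.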

How the data were processed

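Leaf RNA-seq libraries (2 PDL, 2 PSL) were grouped by their labels. Per the authors' methods, low-quality reads were removed (FASTX-toolkit, FastQC), the rest was placed on Gmax2.0 by TopHat with a Bowtie2 index, and Cufflinks and Cuffdiff made the loci (versions not given in the sources used here). The deposited values are the authors' FPKM per locus and library. FPKM are estimates scaled to length and depth, not counts, and read counts per locus were not used, so counting error per gene is unknown. The 5 deposited columns of the authors' own comparison (log2 fold change, test statistic, p, q, mark) were not used. The pooled FPKM per group was printed for reductase genes only and entered no fit or ratio. Per the authors' methods the replicates were biological, each from 3 different plants; whether the plants shared a tank is not given in the sources used here, and p-values measure the spread between these pools.

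Loci with a mean of at least 0.3 FPKM (32686 of 39505, including some of the 722 merged loci) were fitted by limma (3.58.1, under R 4.3.3; lmFit, then eBayes with a mean-variance trend) to log2(FPKM + 0.1), without covariates, and p-values were adjusted by Benjamini-Hochberg over all of them. Called means a log2 fold change of 1 or more in either direction together with an unadjusted p no higher than 0.05. Fold changes on this scale understate those of low genes. The fit was also run on simulated data with known changes, and the outcome is not reported here. Other steps ran in Python 3.11.15 (pandas 2.3.3, numpy 2.4.6, scipy 1.17.1), with plots by matplotlib 3.10.9.

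Members and lists were chosen with earlier results of these data known, and the word patterns of some lists were corrected after their matches were seen. Named were all reductase loci, in each other pathway list the called loci and the 2 with the highest mean FPKM, called loci of the clock and dark lists, the 3 nearest profiles of each gene, and ACTIN11. Glyma.15G270200, Glyma.12G019400, Glyma.06G127400, Glyma.04G236900, Glyma.01G192600, Glyma.18G284600 and the asparagine synthetase loci were added after their values were seen. Alternatives were pseudocounts of 1 and 0.01, a minimum mean of 1 FPKM or none, quantile normalization, median centring, no trend, a replicate block and leaving out each library. No sequences were printed, since 0 of the 59048 entries of the RefSeq gene table (Glycine_max_v4.0) matched the gene names.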

Additional observations from a re-analysis of the deposited data

How the results depend on the processing

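The log2 differences of the 3 genes were positive under every alternative run. Under quantile normalization that of Glyma.13G084000 was 0.795, more than its replicate spread below the 0.98 given, and that of Glyma.02G132100 was 0.91. The same step took Glyma.06G109200 from 0.55 to 0.33 and Glyma.07G212800 from 0.86 to 0.77. Of other abundant loci, Glyma.13G210800 went from 0.29 to 0.05 and Glyma.05G007100 from 0.39 to 0.13. Summed FPKM was not recomputed under this normalization. With a pseudocount of 1, Glyma.14G165000 was at 2.08. Leaving out each library in turn gave 1.87 to 2.87 for Glyma.14G165000, 0.96 to 0.9999 for Glyma.13G084000 and 0.92 to 1.02 for Glyma.02G132100, so the latter crossed 1 when PDL-1 (1.02) or PSL-1 (1.02) was left out.

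The 663 loci called became 365 with a pseudocount of 1, 1041 with no filter, and 1066 to 1407 with a library left out (1283 without PDL-1, 1066 without PDL-2, 1407 without PSL-1 and 1143 without PSL-2), where the lone sample of a group is assumed to vary like the other group. The 2 pathway loci called became 0 with a pseudocount of 1, 1 at a minimum mean of 1 FPKM, and 4 to 12 with a library left out (5 without PDL-1, 4 without PDL-2, 12 without PSL-1, of which 9 were higher, and 6 without PSL-2). The cause of these moves was not tested.

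The labels number the replicates 1 and 2 in both groups but do not tie the numbers to a shared batch, and deviations of PDL-1 and PSL-1 from their group means had r = −0.0788 over 32686 loci, so the samples were not treated as paired. With a replicate block 662 loci were called, of which 0 had an adjusted p under 0.05 (19 without the block), and 1 of the pathway loci was called, Glyma.18G127200. The block left the differences of the 3 genes at 2.37, 0.98 and 0.97.

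Differences near 0 changed sign. Glyma.19G071800 was at −0.0070 and Glyma.08G126800 at −0.066 under quantile normalization, and Glyma.14G176900 at 0.0018 under median centring. With each library left out in turn, differences ran from −0.11 to 0.13 for Glyma.19G071800, −0.076 to 0.24 for Glyma.08G126800, −0.037 to 0.031 for Glyma.14G176900, −0.057 to 0.15 for Glyma.05G029900, −0.068 to 0.038 for Glyma.02G208700, −0.15 to 0.11 for Glyma.18G290800 and −0.080 to 0.53 for Glyma.09G050100. The median over all loci stayed between −0.02 and 0.00 under every alternative.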
